A study of Danio rerio with 6 samples.

Results

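The Hox genes are a family of transcription factor genes that lie in clusters, and the probe sets of the array whose single platform gene symbol begins with hox, a cluster letter from a to d and a paralog number were examined as one family. This choice used gene names and no measured value. It found 59 probe sets for 42 genes, out of 15502 probe sets and 8793 named genes. They comprised 11 Hox a genes, 13 Hox b genes, 12 Hox c genes and 6 Hox d genes, in the clusters hoxaa (6), hoxab (5), hoxba (10), hoxbb (3), hoxca (9), hoxcb (3) and hoxda (6). By paralog number, 13 belonged to groups 1 to 4, 12 to groups 5 to 8 and 17 to groups 9 to 13.

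Zebrafish tumours were profiled on 6 Affymetrix zebrafish arrays. Each array was taken to hold a separate tumour, since the titles call the replicates biological. The SRBCT group (small round blue cell tumour, 3 arrays) came from Tg(HSP:EWS-FLI1); p53 M214K/M214K fish. A transposon that carries the human EWS-FLI1 fusion gene behind the heat shock promoter HSP70 had been injected into the fertilised egg, and fish made in this way can be mosaic for the insertion. The MPNST group (malignant peripheral nerve sheath tumour, 3 arrays) came from p53 M214K/M214K fish whose genotype label lists no transgene. Both groups were thus homozygous for the M214K allele of p53, and no group with normal p53 was measured. The labels give the tissue only as tumour. They do not give the site in the body, the age or the sex of the fish. Probe sets of the array read zebrafish transcripts and give no value for the human fusion gene. Values are log2 expression from RMA, and every difference is SRBCT minus MPNST in log2 units, so that 1 unit is a doubling. Errors given as SD are over the 3 arrays of a group, and the number of arrays limits the precision.

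Hox proteins give cells of the embryo their position along the body axis. Genes with low paralog numbers lie at the 3′ end of a cluster and are switched on early and up to the hindbrain, and genes with high numbers are switched on later and nearer the tail, whereas the forebrain and midbrain form without Hox expression. Many adult cells, among them fibroblasts, keep the Hox pattern of the place where they arose. Zebrafish carry a and b copies of several clusters as a result of a genome duplication in the ancestor of teleost fish.

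The arrays of a group were not equally alike. SRBCT 3 correlated at 0.892 with SRBCT 1 and at 0.864 with SRBCT 2 across all probe sets, against 0.939 between SRBCT 1 and SRBCT 2, and at 0.875 to 0.916 with the MPNST arrays. Correlations within MPNST were between 0.938 and 0.968. The calls and the values of the wide-ranging Hox genes are therefore given with and without SRBCT 3. As SRBCT 3 was the SRBCT array most like MPNST, leaving it out favours larger differences between the groups. It leaves only SRBCT 1 and SRBCT 2 in their group. Of all probe sets 7.35% passed in that fit, against 0.903% over all 6 arrays. Calls made without SRBCT 3 are thus no separate support for a difference between the groups. The 20 control probe sets with no target in the sample had values from 2.65 to 5.31, and their median level was 3.74, 3.46 and 4.14 on SRBCT 1, 2 and 3, against 3.30, 3.61 and 3.50 on MPNST 1, 2 and 3. Of these controls 17 were higher in SRBCT, and the median difference over all 20 was 0.29, so differences of this size in dim genes occur without a transcript.

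The fixed level of 5.31, the highest of those control values, was used only to count Hox genes on each array. It was chosen after the values were seen, and since probe sets differ in brightness it does not part expressed from silent genes. On SRBCT 3, 17 of 42 Hox genes lay above it, on SRBCT 1 only 1 (hoxd10a, a posterior gene of the d cluster, at 5.58) and on SRBCT 2 none. On MPNST 1, 2 and 3 the counts were 6, 11 and 10. The same count over all named genes hardly differed between arrays, from 62.0% to 63.8% on SRBCT arrays and from 62.7% to 64.9% on MPNST arrays. RMA brings the arrays to a common distribution of values, so this near equality is built in and does not test for an array effect. The posterior paralog groups 9 to 13 supplied 9 of the 17 genes on SRBCT 3, and 2, 4 and 3 of the genes on MPNST 1, 2 and 3. Groups 1 to 4 supplied 4 genes on SRBCT 3, and 3, 4 and 4 on the MPNST arrays. Groups 5 to 8 supplied 4 on SRBCT 3, and 1, 3 and 3 on the MPNST arrays. The tissue was bulk, so fewer cells that express a gene and less RNA per cell cannot be told apart.

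**Figure D1:**
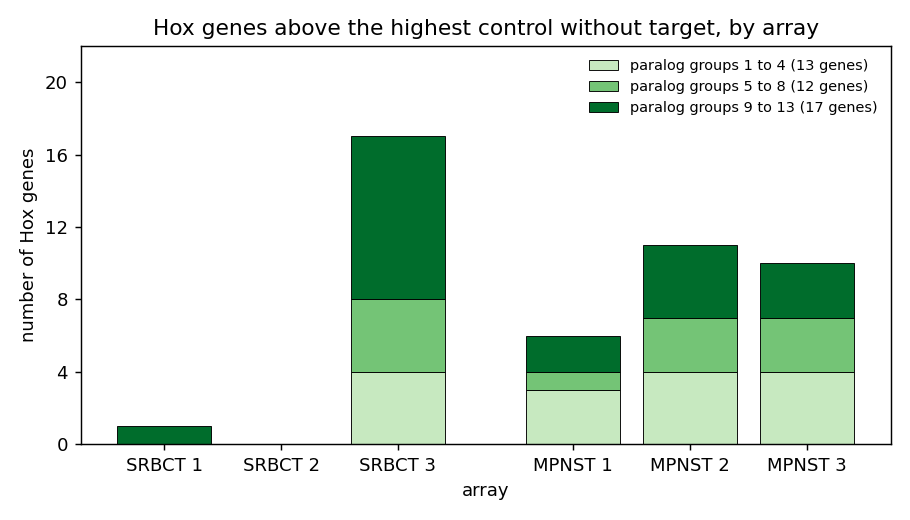
Number of Hox genes (vertical axis) whose level exceeded 5.31 log2 units, the highest value of the control probe sets without a target, on each SRBCT and MPNST array, with bars stacked by paralog groups 1 to 4, 5 to 8 and 9 to 13. SRBCT 3 had 17 such genes, SRBCT 1 had 1 and SRBCT 2 had none, against 6, 11 and 10 on the MPNST arrays.

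In the comparison of SRBCT with MPNST over all 6 arrays, none of the 59 Hox probe sets passed the threshold, an adjusted p under 0.05 (limma, Benjamini-Hochberg over all probe sets). Of all probe sets 0.903% passed, 0.0903% higher and 0.813% lower in SRBCT. With array weights no Hox probe set passed either, against 1.79% of all (0.535% higher and 1.26% lower). The smallest adjusted p of a Hox probe set was 0.199, and 2 of 59 had an unadjusted p under 0.05, against 15.2% of all probe sets. The SRBCT arrays spanned at least 2 log2 units for 14 of 42 Hox genes (33.3%), against 10.6% of all named genes. The MPNST arrays did so for 3 of 42 (7.14%), against 4.62% of all. The differences of the 42 genes, each read by its brightest probe set, lay between -2.20 and 1.34, with 26 above 0 and a median of 0.13. Over all 8793 genes the median was 0.07. The groups did not overlap for 1 Hox gene, which was higher in SRBCT, against 12.3% of all genes higher and 10% lower. That gene was hoxc4a, an anterior gene of the c cluster, at 4.53, 3.86 and 4.25 on SRBCT 1, 2 and 3, against 3.42, 3.81 and 3.73 on MPNST 1, 2 and 3. Its difference was 0.56 (SE 0.24, adjusted p 0.345) and 0.54 (adjusted p 0.355) without SRBCT 3. All of its values were below 5.31.

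In the fit without SRBCT 3, 6 Hox probe sets of 5 genes passed, all of them lower in SRBCT, against 3.68% of all probe sets lower and 3.67% higher (7.35% in all). Of the genes, 5 of 42 (11.9%) were lower and none higher, against 3.95% and 3.22% of all genes. The 5 were hoxa3a, hoxa4a, hoxa5a, hoxb7a and hoxd9a. The groups did not overlap in that fit for 12 of 42 Hox genes that were lower (28.6%), against 18.4% of all genes, and for 2 that were higher, against 21.0% of all. In the fit without SRBCT 2, 1 Hox probe set passed, that of hoxc13a, which was higher, against 0.703% of all (0.239% higher and 0.464% lower). In the 4 fits that left out SRBCT 1, MPNST 1, MPNST 2 or MPNST 3 none did, the smallest adjusted p being between 0.334 and 0.476 for these 4. In these fits only 0.168%, 0.697%, 0.245% and 0.368% of all probe sets passed. Without SRBCT 2, 13 Hox genes were separated higher and none lower, against 23.1% and 15.4% of all genes. The median over the 42 genes was -0.07 without SRBCT 3 and 0.28 without SRBCT 2.

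**Figure D2:**
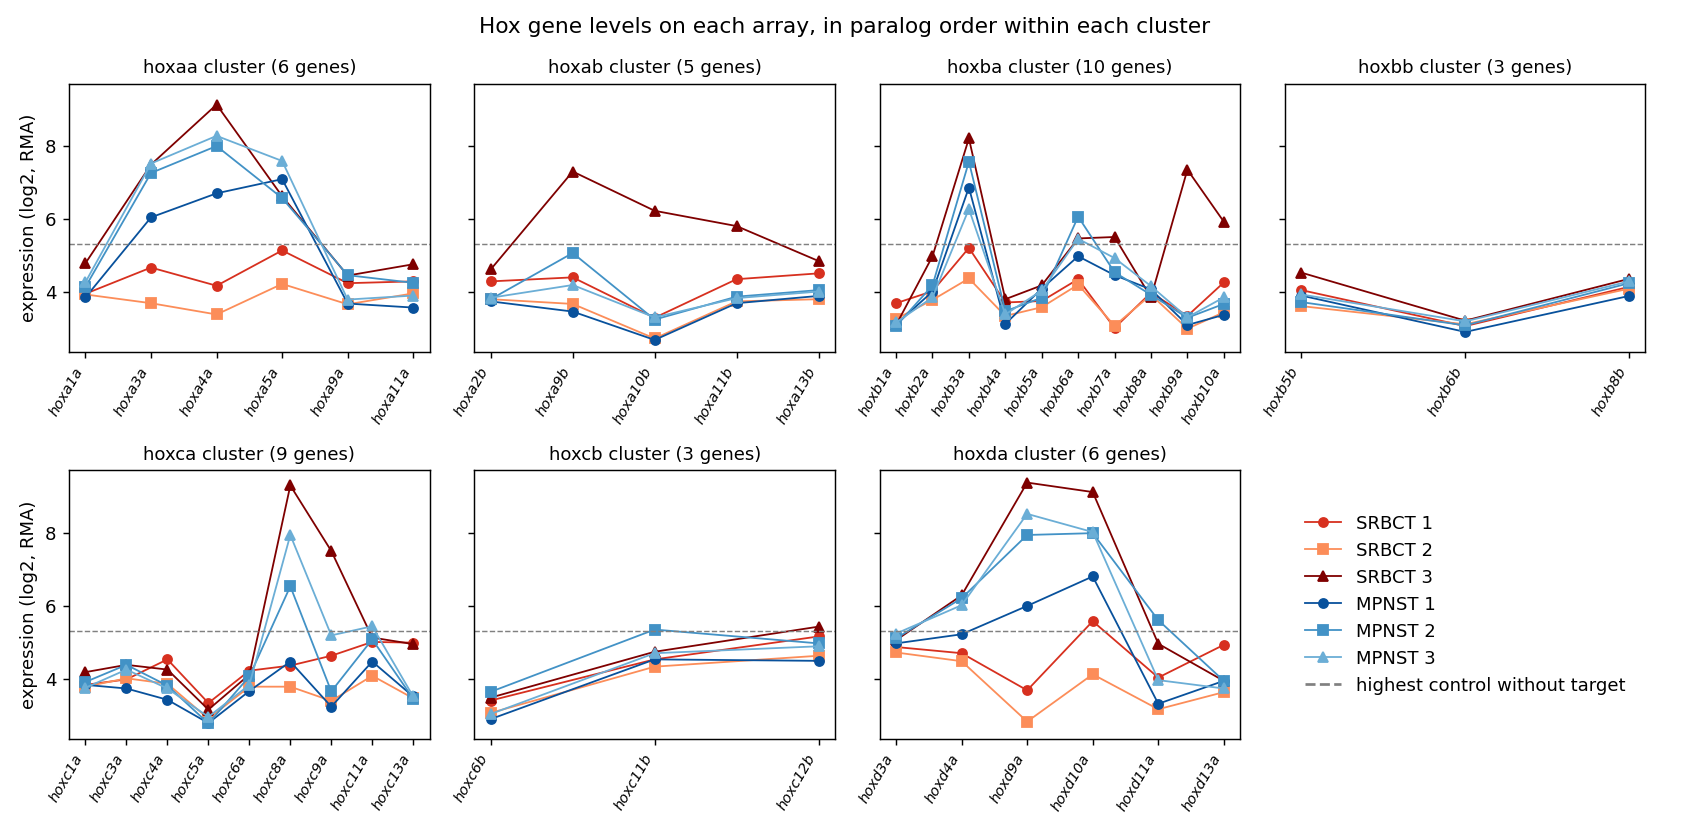
Expression (log2, RMA) of each of the 42 Hox genes on the 3 SRBCT and 3 MPNST arrays, one panel per cluster and genes in order of paralog number. The dashed line marks 5.31, the highest control without a target. SRBCT 3 lay within the MPNST values at hoxa3a and hoxa5a and above all of them at hoxa4a, hoxb3a, hoxd9a, hoxd10a, hoxa9b, hoxb9a and hoxc9a. SRBCT 1 and SRBCT 2 both lay below all MPNST values at hoxa3a, hoxa4a, hoxa5a, hoxb3a, hoxd9a and hoxd10a. At hoxa9b, hoxb9a and hoxc9a they did not both do so.

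A range of at least 2 log2 units over the 6 arrays, a limit set after the values were seen, was reached by 15 of 42 Hox genes (35.7%), against 21.6% of all named genes. On SRBCT 3 these 15 had levels between 4.96 and 9.39, and on SRBCT 1 and SRBCT 2 between 2.72 and 5.58. SRBCT 3 was the highest of the 6 arrays for 12 of the 15, and SRBCT 2 the lowest for 9. Among the 1903 of all named genes with such a range, SRBCT 3 was the highest array for 17.6% and SRBCT 2 the lowest for 30.3%. Over all 42 Hox genes, whatever their range, SRBCT 3 was the highest array for 25 (59.5%), against 21.0% of all named genes. SRBCT 2 was the lowest for 20 (47.6%), against 21.2%. On at least 1 array 47.6% of Hox genes exceeded the highest control without a target, against 76.5% of all named genes. These controls also had their highest median level on SRBCT 3 (4.14), and their lowest on MPNST 1 (3.3), with 3.46 on SRBCT 2. The part of this background in the counts over all 42 Hox genes was not tested.

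The hoxaa genes of paralog groups 3 to 5 were lower on SRBCT 1 and SRBCT 2 than on the other 4 arrays. hoxa4a, a paralog group 4 gene that in vertebrate embryos marks the posterior hindbrain and neck region, was at 4.17, 3.38 and 9.15 on SRBCT 1, 2 and 3, against 6.71, 8.01 and 8.29 on MPNST 1, 2 and 3. SRBCT 3 was thus the highest array and the other SRBCT arrays lay below all MPNST arrays. The difference was -2.10 (SE 1.51, 95% interval -5.77 to 1.56, adjusted p 0.529) over all arrays. Without SRBCT 3 it was -3.90 (SE 0.54, interval -5.26 to -2.53, adjusted p 0.0166). No fold is given, since SRBCT 1 and 2 lay within the range of the controls without a target.

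hoxa3a, a group 3 gene whose mouse counterpart patterns the pharyngeal arches, the thymus and the parathyroid glands, behaved alike in both of its probe sets. The brighter one was at 4.67, 3.69 and 7.50 on the SRBCT arrays, against 6.05, 7.27 and 7.53 on the MPNST arrays. The other was at 3.21, 2.79 and 5.72 on the SRBCT arrays, against 4.78, 5.45 and 6.02 on the MPNST arrays. In both, SRBCT 3 lay within the MPNST range and the other SRBCT arrays below it. Their differences were -1.66 (adjusted p 0.468) and -1.51 (adjusted p 0.423), and without SRBCT 3 they were -2.77 (adjusted p 0.0441) and -2.42 (adjusted p 0.0273).

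hoxa5a, a group 5 gene known in mouse for its part in lung and cervical skeleton formation, was at 5.14, 4.22 and 6.63 on SRBCT 1, 2 and 3, against 7.10, 6.58 and 7.60 on MPNST 1, 2 and 3. SRBCT 3 exceeded only MPNST 2, by less than the spread within MPNST (SD 0.51). The difference was -1.76 (SE 0.63, 95% interval -3.30 to -0.23 without adjustment, adjusted p 0.292), and -2.41 (SE 0.42, adjusted p 0.0307) without SRBCT 3. The remaining measured hoxaa genes, hoxa1a, hoxa9a and hoxa11a, stayed between 3.57 and 4.79 on all arrays.

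Of the hoxba cluster, hoxb3a was at 5.21, 4.37 and 8.22 on SRBCT 1, 2 and 3, against 6.87, 7.58 and 6.28 on MPNST 1, 2 and 3. This group 3 gene acts in hindbrain segmentation. SRBCT 3 was the highest array and SRBCT 1 and 2 the lowest. The difference was -0.98 (SE 1.0, adjusted p 0.65) and, without SRBCT 3, -2.12 (adjusted p 0.0588), which did not pass. hoxb6a, of the trunk-level group 6, was at 4.35, 4.20 and 5.47 on the SRBCT arrays, against 4.98, 6.07 and 5.46 on the MPNST arrays, with a difference of -0.83 (adjusted p 0.42), and -1.23 (adjusted p 0.117) without SRBCT 3. hoxb7a was at 3.01, 3.07 and 5.51 on the SRBCT arrays, against 4.46, 4.54 and 4.93 on the MPNST arrays. Its difference of -0.78 (adjusted p 0.6) became -1.60 (SE 0.23, adjusted p 0.0178) without SRBCT 3. A second, dimmer hoxb7a probe set was at 3.37, 3.85 and 3.88 on the SRBCT arrays, against 4.60, 4.57 and 4.35 on the MPNST arrays. Its groups did not overlap, and its difference was -0.81 (SE 0.22, adjusted p 0.199). Without SRBCT 3 the difference was -0.90 (adjusted p 0.0959), which did not pass. SRBCT 3 lay below all MPNST arrays in this probe set and above them in the brighter one.

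Among the genes of paralog groups 8 to 10, hoxc8a, hoxd9a and hoxd10a exceeded 5.31 on SRBCT 3 and on MPNST arrays. hoxd9a and hoxd10a act in the lumbar spinal cord and the limb or fin bud of vertebrates. hoxd9a was at 3.68, 2.82 and 9.39 on SRBCT 1, 2 and 3, against 6.0, 7.95 and 8.53 on MPNST 1, 2 and 3. hoxd10a was at 5.58, 4.12 and 9.13 on the SRBCT arrays, against 6.81, 8.0 and 8.03 on the MPNST arrays. In both genes SRBCT 3 exceeded all MPNST arrays and SRBCT 1 and 2 lay below all of them. The difference of hoxd9a was -2.20 (SE 1.77, adjusted p 0.568) and, without SRBCT 3, -4.24 (SE 0.79, 95% interval -6.22 to -2.27, adjusted p 0.0372), again with SRBCT 1 and 2 within the control range. For hoxd10a the values were -1.34 (adjusted p 0.621) and -2.76 (adjusted p 0.0538).

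hoxc8a, a thoracic-level gene of the c cluster, varied within both groups. Its brightest probe set was at 4.36, 3.78 and 9.31 on SRBCT 1, 2 and 3, against 4.47, 6.54 and 7.95 on MPNST 1, 2 and 3. MPNST 1 was thus level with SRBCT 1. The difference was -0.50 (SE 1.63, adjusted p 0.897), and -2.25 (adjusted p 0.274) without SRBCT 3. The other hoxc8a probe sets, both made from another source sequence, ran from 2.35 to 4.39 and did not show this spread. The brighter hoxd4a probe set had its lowest values on SRBCT 1 and 2 and its highest on SRBCT 3, in smaller steps, at 4.70, 4.48 and 6.29 on the SRBCT arrays, against 5.22, 6.21 and 6.02 on the MPNST arrays (difference -0.66, adjusted p 0.575, and -1.23 with adjusted p 0.111 without SRBCT 3). The other hoxd4a probe set was at 4.30, 3.47 and 5.10 on the SRBCT arrays, against 4.55, 5.67 and 4.87 on the MPNST arrays, and was highest on MPNST 2. hoxd11a was at 4.03, 3.16 and 4.96 on the SRBCT arrays, against 3.31, 5.61 and 3.96 on the MPNST arrays, so that MPNST 2 was the highest array (difference -0.24, adjusted p 0.883, and -0.70 with adjusted p 0.641 without SRBCT 3).

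**Figure D3:**
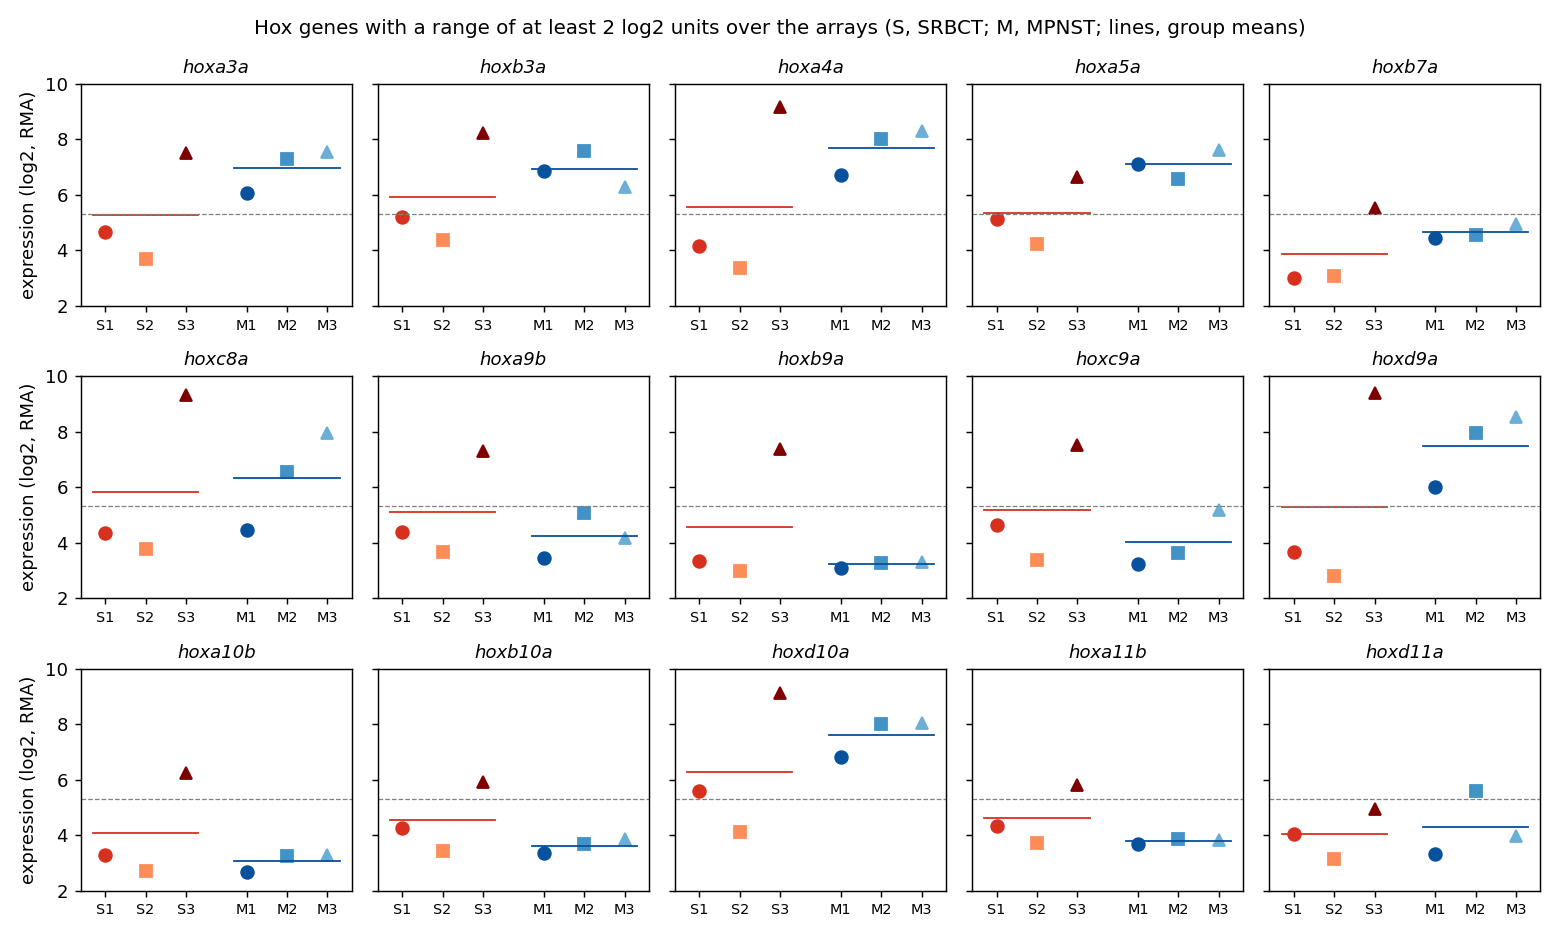
Expression (log2, RMA) of the 15 Hox genes with a range of at least 2 log2 units, in order of paralog number, for SRBCT 1 to 3 (S) and MPNST 1 to 3 (M), with group means as lines and the highest control without a target as a dashed line. In their brightest probe sets, hoxa9b, hoxa10b, hoxa11b, hoxb7a, hoxb9a, hoxb10a and hoxc9a exceeded 5.31 on SRBCT 3 alone.

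The posterior genes hoxa9b, hoxa10b, hoxa11b, hoxb9a, hoxb10a and hoxc9a, exceeded 5.31 on SRBCT 3 and on no other array. hoxb7a, of a more anterior group (5.51, in its brighter probe set only), and hoxc12b (5.43) also did so. The 6 named first belong to 3 clusters and to paralog groups 9, 10 and 11, which act in the posterior trunk, the tail and the fin buds. hoxb9a was at 3.34, 2.99 and 7.36 on SRBCT 1, 2 and 3, against 3.09, 3.29 and 3.30 on MPNST 1, 2 and 3, and its other probe set at 3.03, 2.94 and 6.49, against 2.64, 2.77 and 2.85. Both probe sets placed SRBCT 3 far above the other 5 arrays. hoxb10a was at 4.26, 3.44 and 5.93 on the SRBCT arrays, against 3.37, 3.67 and 3.85 on the MPNST arrays. A further hoxb10a probe set was at 2.90, 2.49 and 6.15 on the SRBCT arrays, against 2.58, 2.44 and 2.58 on the MPNST arrays. The remaining hoxb10a probe set did not set SRBCT 3 apart, at 3.47, 2.85 and 3.51 on the SRBCT arrays, against 2.87, 3.11 and 2.99 on the MPNST arrays.

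In the hoxab cluster the same array stood out at each of the consecutive groups 9 to 11. hoxa9b was at 4.40, 3.67 and 7.31 on SRBCT 1, 2 and 3, against 3.46, 5.07 and 4.19 on MPNST 1, 2 and 3. hoxa10b was at 3.29, 2.72 and 6.23 on the SRBCT arrays, against 2.68, 3.24 and 3.30 on the MPNST arrays. The level of hoxa11b was 4.35, 3.74 and 5.81 on the SRBCT arrays, against 3.69, 3.87 and 3.83 on the MPNST arrays, and that of hoxc9a 4.63, 3.39 and 7.51, against 3.23, 3.65 and 5.19. The differences of the 6 genes, from 0.84 (hoxa11b) to 1.34 (hoxb9a), had standard errors of 0.52 to 1.14 and adjusted p from 0.479 to 0.675, and rested on SRBCT 3. Without that array they lay between -0.20 (hoxa9b) and 0.25 (hoxa11b), with adjusted p from 0.639 to 0.994.

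**Figure D4:**
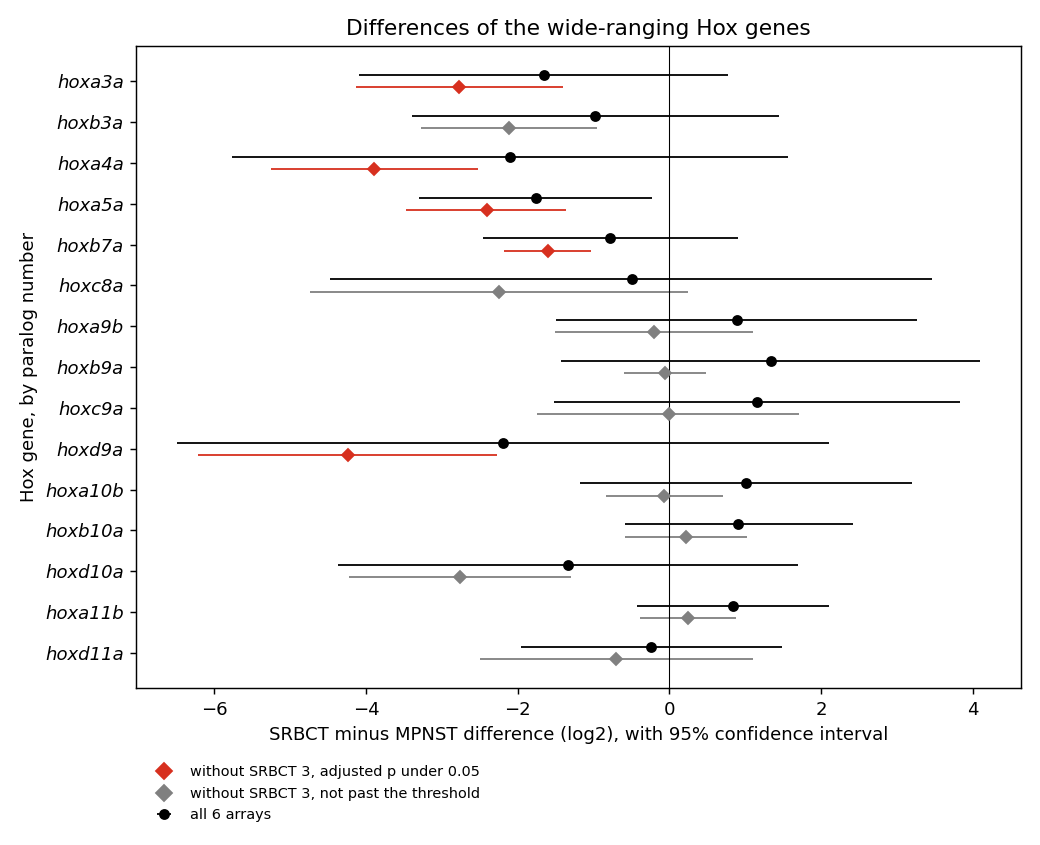
SRBCT minus MPNST difference (log2, horizontal axis) with its 95% confidence interval for the 15 wide-ranging Hox genes, from all 6 arrays (black) and without SRBCT 3 (diamonds, red where the adjusted p was under 0.05). The intervals are not adjusted for the number of tests. Without SRBCT 3, those of hoxa4a (-5.26 to -2.53), hoxd9a (-6.22 to -2.27), hoxa3a, hoxa5a, hoxb7a, hoxb3a and hoxd10a lay below 0. Of these genes, hoxb3a and hoxd10a did not pass the threshold. The intervals of hoxa9b, hoxa10b, hoxa11b, hoxb9a, hoxb10a, hoxc9a, hoxc8a and hoxd11a held 0.

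Paralog groups 12 and 13 lay below 5.31 on every array, except for hoxc12b at 5.43 on SRBCT 3. hoxc13a, known in mammals for hair and nail keratin control, was at 4.99, 3.46 and 4.95 on SRBCT 1, 2 and 3, against 3.51, 3.45 and 3.51 on MPNST 1, 2 and 3. SRBCT 2 was level with the MPNST arrays. The difference was 0.98 (SE 0.44, adjusted p 0.355), and 1.48 (SE 0.17, adjusted p 0.046) without SRBCT 2. The controls without a target had their lowest SRBCT level on SRBCT 2 too, as given above, and the part of this in the result was not tested. hoxa13b (difference 0.40), hoxd13a (0.30) and hoxc12b (0.29), all with adjusted p of 0.539 or more, ranged from 3.63 to 5.43. hoxd13a, a gene of the distal limb and fin, was highest on SRBCT 1 at 4.93 and between 3.63 and 3.94 on the other arrays.

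The first paralog groups were low on every array. hoxa1a, hoxb1a, hoxc1a, hoxa2b and hoxb2a, which act in hindbrain segments and the cranial neural crest, ranged from 3.06 to 4.98 and differed by 0.10 to 0.44, with adjusted p of 0.444 or more. hoxb4a (3.12 to 3.80), hoxc3a (3.73 to 4.38) and hoxc5a (2.77 to 3.33), of groups 3 to 5, were also below 5.31 on every array and differed by 0.29, 0.00 and 0.29. Altogether 22 of the 42 Hox genes never exceeded 5.31. Their median difference was 0.20, and it was positive for 19 of them, and the control probe sets without a target shifted the same way by 0.29.

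By cluster letter, the median difference was 0.40 for a, 0.07 for b, 0.16 for c and -0.45 for d genes, and without SRBCT 3 it was -0.07, -0.06, 0.01 and -0.96. The a genes joined 2 clusters of opposite sign, hoxaa with a median of -0.76 and hoxab with 0.84 (-1.28 and 0.17 without SRBCT 3). Of the 6 hoxda genes 5 had a difference below 0. By paralog number it was 0.10 in groups 1 to 4, -0.04 in groups 5 to 8 and 0.40 in groups 9 to 13, and -0.12, -0.06 and -0.03 without SRBCT 3. The sign for b genes and for groups 1 to 4 depended on the scaling, with medians of -0.05 and -0.03 under cyclic loess. That of groups 5 to 8 turned to 0.10 when the probe sets of a gene were averaged, and to 0.13 with the S-named probe sets. It was also positive without SRBCT 1 (0.08), without SRBCT 2 (0.09) and without MPNST 3 (0.09). Without dim probe sets, which left 7 Hox genes, the medians of a genes, c genes and groups 9 to 13 were -1.76, -0.50 and -1.77. That of c genes was the value of hoxc8a alone. Probe sets were kept by their mean over all 6 arrays, and all 7 genes had a lower mean in SRBCT. A gene could pass this filter through the MPNST arrays and SRBCT 3, so the sign of these medians is no separate support. No test was made of these medians, whose members share the same 6 arrays.

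Copies a and b of a gene were both measured for 7 paralog pairs, and where 1 copy varied the other often did not. hoxa9b spanned 3.85 log2 units over the arrays and hoxa9a 0.80, and hoxa11b spanned 2.12 and hoxa11a 1.19. For hoxb6a the span was 1.87 and for hoxb6b 0.31. The pairs hoxb5a and hoxb5b, hoxb8a and hoxb8b, and hoxc6a and hoxc6b spanned at most 0.92 in their brightest probe sets, with differences between -0.15 and 0.21. The other hoxb8a probe sets spanned 1.58 and 2.13, with differences of 0.54 and 0.61. hoxc11a and hoxc11b differed by -0.26 and -0.33 and spanned 1.36 and 1.02. Equal sensitivity of the probe sets to the copies is not known.

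Of the 13 genes with several probe sets, 3 had differences of both signs, hoxa9a (-0.01 and 0.14), hoxb8a (-0.13 to 0.61) and hoxc8a (-0.50 to 0.13), so their direction is uncertain. For 8 genes a pair of probe sets shared a name except for the letter A or S. In the array's naming this letter marks the orientation of the probes relative to the source sequence. In hoxb8a the name of the S probe set also carried an added suffix, so that pair differed in more than the letter. The S probe set spanned more than the A probe set in 8 of 8 pairs, 0.54 to 3.55 log2 units against 0.20 to 1.23. For hoxa10b the S probe set reached 6.23 on SRBCT 3, while the A probe set stayed between 2.72 and 2.92 on all arrays. The A probe set was the brightest and stood for the gene in hoxb8a, hoxb8b and hoxd3a. The S probe set of hoxb8a was at 4.17 on SRBCT 3 and at most 2.93 on the other arrays, and another hoxb8a probe set, from a separate source sequence, was at 5.03 on SRBCT 3 and at most 3.17 elsewhere. The S probe set of hoxd3a was at 3.79, 3.62 and 5.19 on SRBCT 1, 2 and 3, against 4.41, 4.93 and 5.08 on MPNST 1, 2 and 3. SRBCT 1 and 2 were the lowest arrays and SRBCT 3 the highest.

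Hox proteins bind DNA together with TALE homeodomain proteins of the Pbx, Meis and Pknox families. Of 13 measured TALE genes, those of these families and tgif1, none passed over all arrays, with a median difference of 0.31, against 0.07 over all genes. meis3, a hindbrain cofactor gene, was at 5.81, 5.82 and 4.71 on SRBCT 1, 2 and 3, against 3.51, 3.86 and 3.49 on MPNST 1, 2 and 3. All SRBCT arrays exceeded all MPNST arrays, and the difference was 1.83 (SE 0.35, adjusted p 0.103). pknox2 differed by 1.14 (adjusted p 0.304). Without SRBCT 3, meis3 (2.19, adjusted p 0.00642), pknox2 (1.60, adjusted p 0.0241) and pbx3b (2.95, adjusted p 0.0299) rose, and none of the 13 fell, against 3.22% of all genes higher and 3.95% lower.

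Retinoic acid and the caudal factors switch Hox genes on in the embryo. Among 21 measured genes of this list none passed (median 0.22). rdh10b, which makes the retinal from which retinoic acid is formed, was at 4.73, 5.61 and 4.26 on SRBCT 1, 2 and 3, against 8.64, 7.49 and 7.47 on MPNST 1, 2 and 3. It was lower on all SRBCT arrays, by -3.00 (SE 0.47, adjusted p 0.0589), and passed without SRBCT 3 (-2.70, adjusted p 0.0323). aldh1a2, the enzyme that forms retinoic acid, differed by -1.03 (adjusted p 0.304), and by -0.61 (adjusted p 0.205) without SRBCT 3. The ParaHox and even-skipped relatives (6 measured, none passed) were led by cdx4, a caudal activator of posterior Hox genes, at 6.08, 3.63 and 5.45 on the SRBCT arrays, against 4.10, 3.77 and 3.84 on the MPNST arrays (difference 1.15, adjusted p 0.425, and 0.95 with adjusted p 0.513 without SRBCT 3), and by cdx1a (0.46, adjusted p 0.45). eve1, a tail bud gene chosen after its values were seen, was at 4.06, 3.62 and 9.42 on SRBCT 1, 2 and 3, against 3.36, 3.58 and 3.64 on MPNST 1, 2 and 3 (difference 2.17, adjusted p 0.517, and 0.31 with adjusted p 0.516 without SRBCT 3). It was thus high on SRBCT 3 alone, like hoxb9a. Of 19 tail bud and posterior mesoderm genes none passed (median 0.21), the smallest p-values belonging to her1 (0.33, adjusted p 0.412) and cdx4.

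Regulators of the forebrain, eye and midbrain-hindbrain boundary, which form without Hox expression or at its front edge, were measured by 31 genes (median 0.19, none passed). six6b, a regulator of eye and pituitary development, was at 9.84, 10.46 and 3.21 on SRBCT 1, 2 and 3, against 3.16, 2.94 and 3.21 on MPNST 1, 2 and 3. SRBCT 1 and 2 stood far above the other 4 arrays. The difference was 4.73 (SE 1.87, adjusted p 0.316) and, without SRBCT 3, 7.05 (adjusted p 0.00099). In that fit six6b was the only 1 of the 31 genes that passed. Of all genes 3.22% were then higher and 3.95% lower, so this count lies near the share of all genes. The second smallest p belonged to the retinal gene rx1 (0.31, adjusted p 0.438). otx2b, which marks the Hox-free forebrain and midbrain, was looked up after its values were seen and lay between 3.99 and 4.99 on all arrays. en1b, likewise chosen afterwards, was at 5.09, 4.42 and 8.80 on the SRBCT arrays, against 5.83, 6.64 and 6.88 on the MPNST arrays, in the order of hoxd10a.

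Polycomb and trithorax complexes hold Hox clusters silent or active. Of 22 measured genes of these complexes none passed, also without SRBCT 3, and the median was 0.11. phc2b, a Polycomb gene, differed by 0.83 (adjusted p 0.218) and bmi1b, another, by -1.19 (adjusted p 0.293). The methyltransferase gene ezh2 was at 8.03, 7.87 and 6.95 on SRBCT 1, 2 and 3, against 7.57, 7.68 and 7.67 on MPNST 1, 2 and 3 (difference -0.02, adjusted p 0.977).

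Markers of other cell types also differed between the arrays on which Hox genes differed. For the intestine and pancreas list (14 of 18 genes measured) the median level was 5.69, 4.34 and 7.36 on SRBCT 1, 2 and 3, against 4.82, 4.60 and 4.31 on MPNST 1, 2 and 3, so SRBCT 3 was highest here too, and none of the 14 passed. Kidney markers (10 of 14 measured) had medians of 4.92, 4.11 and 4.93 on the SRBCT arrays, against 4.63, 4.39 and 4.30 on the MPNST arrays, and none passed. Neuron markers (15 of 25) had medians of 5.84, 6.34 and 5.09 on the SRBCT arrays, against 4.30, 4.36 and 4.59 on the MPNST arrays. None passed over all arrays, and without SRBCT 3, 6 rose and 1 fell, against 3.22% and 3.95% of all genes. elavl3, a defining neuron marker, was at 8.50, 8.80 and 4.13 on SRBCT 1, 2 and 3 and between 3.83 and 4.10 on the MPNST arrays. The marker that fell, uchl1, had the smallest p of the list over all arrays (difference -1.81, adjusted p 0.133). It was at 8.28, 8.56 and 7.30 on the SRBCT arrays, against 10.23, 9.45 and 9.88 on the MPNST arrays. Of the 15 markers, 14 had a difference above 0 and 1 below. Those of isl1a, tubb5 and gad2 were at most 0.12. Schwann cell and neural crest markers (12 of 16) ranged in median from 5.46 to 7.84 on SRBCT arrays and from 6.70 to 8.18 on MPNST arrays, and none passed. Without SRBCT 3, 2 of these 12 rose and 2 fell. In this list crestin, a zebrafish neural crest marker, was at 7.95, 4.35 and 12.61 on SRBCT 1, 2 and 3, against 9.82, 11.70 and 11.92 on MPNST 1, 2 and 3. foxd3, a regulator of neural crest, was at 6.60, 5.30 and 9.60 on the SRBCT arrays, against 9.67, 10.29 and 10.21 on the MPNST arrays. Both were lowest on SRBCT 1 and 2, as hoxa4a and hoxd9a were. So was pmp22b, at 4.12, 4.95 and 7.54 on SRBCT 1, 2 and 3 and at least 9.37 on the MPNST arrays. In the remaining members of the list SRBCT 1 and 2 did not both lie below the other arrays. sox9b was at 11.62, 11.60 and 5.19 on SRBCT 1, 2 and 3, against 4.49, 4.38 and 4.53 on MPNST 1, 2 and 3. cldnk was at 10.84, 8.84 and 8.67 on the SRBCT arrays, against 5.17, 5.78 and 5.74 on the MPNST arrays. sox10 lay between 10.34 and 11.01 on all arrays. Those that fell without SRBCT 3 were foxd3 (-4.11, adjusted p 0.008) and pmp22b (-5.26, adjusted p 0.00273), and crestin did not pass (-5.00, adjusted p 0.0735).

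Liver markers (10 of 14) had medians of 3.96 to 4.62 on the SRBCT arrays, against 10.12 on MPNST 1 and 4.03 and 3.98 on MPNST 2 and 3, and none passed. Oocyte markers (13 of 16) had medians of 4.25 to 4.90 on SRBCT arrays and of 7.30 to 10.08 on MPNST arrays, and 6 fell, against 0.785% of all genes. Without SRBCT 3, 7 fell, against 3.95% of all genes. Muscle markers (12 of 17), leukocyte markers (10 of 14) and fin and bone mesenchyme markers (14 of 20) had medians of 4.61 to 4.85, 6.08 to 7.04 and 4.51 to 4.68 on SRBCT arrays, and of 4.28 to 4.40, 6.37 to 7.34 and 4.28 to 4.46 on MPNST arrays. Only fn1b of the mesenchyme list, a fibronectin gene, passed and fell (-2.52, adjusted p 0.0303), against 0.785% of all genes lower. Without SRBCT 3 it fell by 2.36 (adjusted p 0.0177), and 1 other gene of the list and 1 muscle marker rose. In that fit 3.95% of all genes were lower and 3.22% higher. The part of these cell types in the Hox levels was not tested, and the site of the tumour and the tumour type cannot be told apart with the labels used here.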

How the data were processed

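Tumour RNA of zebrafish was hybridized to 6 Affymetrix zebrafish arrays, 3 SRBCT and 3 MPNST. The deposited values are on a log2 scale, 1 per probe set and array, and were made with RMA (affy, R 2.2.0), per the submitters' processing notes. They span 1.86 to 13.88, which fits base 2. RMA draws dim values together and so understates their differences. No detection calls were used here. Of 15617 probe sets 115 controls were left out. Symbols came from the platform annotation of 2016, brought up to date by Entrez identifier from RefSeq, and no Hox symbol changed. A gene was read by its probe set with the highest mean. Sequences were not analysed here.

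All 15502 probe sets were fitted in limma 3.58.1 (R 4.3.3; lmFit and eBayes, 2 groups, no covariate), and an adjusted p under 0.05 was called. Code was tested on simulated data. The titles call the replicates biological, which was taken to mean a separate tumour for each array. On that reading the p-values measure the spread between tumours.

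Members, gene lists, tests and named genes were chosen with earlier results of these data known. Named Hox genes are those called, those with separated groups (10 largest rises and falls), the 6 of highest mean, the 4 widest within each group, copy pairs and genes whose probe sets differ in sign. Other Hox genes were named after their values were seen. Of other gene lists up to 4 called members, or the 2 of smallest p, were named, and cell type lists were given by counts and medians. Apart from fn1b, the named members of cell type lists, and ezh2, were picked outside this rule with the values known. Alternative settings changed the scaling (centring on the median, quantile, cyclic loess), the variance model (trended and robust, weighted arrays, replicate block), the probe sets (no dim ones, averages per gene, S-named ones, the last chosen after seeing the data) or the arrays, each left out in turn.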

Additional observations from a re-analysis of the deposited data

How the results depend on the processing

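No Hox probe set was called with median centring, with quantile or cyclic loess scaling, with a trended and robust variance, with array weights or with the replicate number as a block (0 in each). Replicate numbers were taken to mark different fish, and the deviations of same-numbered arrays correlated at 0.0627, 0.0703 and -0.0461. Leaving out single arrays moved the called probe sets between 0 and 6, genes separated higher between 1 and 13 and genes separated lower between 0 and 12. The 13 arose without SRBCT 2, where 23.1% of all genes were separated higher and 15.4% lower, and the 6 and 12 without SRBCT 3. The median difference ran from -0.07 to 0.28. Cyclic loess gave 1 gene separated lower, and the S-named probe sets, tried after the data were seen, gave 2 separated higher. Without dim probe sets 7 Hox genes were left, 0 of them separated higher, with a median of -1.66. Medians were then -1.76 for a, -0.98 for b, -0.50 for c and -1.77 for d genes, and -1.66, -1.13 and -1.77 for paralog groups 1 to 4, 5 to 8 and 9 to 13. Those of b and c genes were the values of hoxb3a and hoxc8a alone. The filter used the mean over all arrays, and all 7 genes kept had a lower mean in SRBCT, so these signs are no separate support. Cyclic loess moved the median of all probe sets to 0.00892, against 0.0933 as deposited. Of 24 Hox genes named by rule, 10 changed sign under at least 1 alternative, none of them called. Of their 295 differences under alternatives 4 passed, those of hoxa3a, hoxa4a, hoxa5a and hoxd9a without SRBCT 3. The calls of hoxb7a without SRBCT 3 and hoxc13a without SRBCT 2 concern genes outside that set. The number of arrays limits precision, and levels near the controls without a target carry little signal.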

Other observations

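Among regulators outside the Hox family, some genes picked after their values were seen differed between arrays of the same group. rx3, a retinal and hypothalamic regulator, was at 4.08, 3.81 and 8.60 on SRBCT 1, 2 and 3, against 3.61, 3.82 and 3.73 on MPNST 1, 2 and 3 (difference 1.78, adjusted p 0.524). emx1, a forebrain gene, was at 4.33, 3.74 and 6.94 on the SRBCT arrays, against 3.74, 6.92 and 6.65 on the MPNST arrays, so that MPNST 1 lay with SRBCT 2 (difference -0.77, adjusted p 0.758). evx1, an even-skipped gene, was highest on MPNST 2, at 7.22, and between 4.19 and 5.16 on the other arrays (difference -1.16, adjusted p 0.459).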
